A study of Mus musculus with 6 samples.

Results

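The triad genes are 10 genes of excitation-contraction coupling in skeletal muscle, namely *Cacna1s*, *Cacnb1*, *Cacng1*, *Cacna2d1*, *Stac3*, *Ryr1*, *Ryr3*, *Trdn*, *Jph1* and *Jph2*. They were chosen by symbol among 23231 genes with a count in at least 1 library, and all 10 had counts. They were followed in 6 RNA-Seq libraries of C2C12, a mouse myoblast line, taken on day 5 of differentiation in 2% horse serum. All cells had received lentivirus at a multiplicity of infection of 100 and had been selected with 2 μg/ml puromycin, so each culture was a pool of transduced cells. The human ubiquitin C promoter of the vector drove dCas9-KRAB, a Cas9 that cannot cut fused to a repressor domain. The 3 control libraries came from dCas9-KRAB cells without an sgRNA against an enhancer, and the other 3 from dCas9-KRAB-En5 cells with a pair of sgRNAs against Myog-En5, an enhancer of *Myog*. *Myog* encodes myogenin, a transcription factor of terminal muscle differentiation. The comparison asks how the coupling genes were expressed when this enhancer was repressed.

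The spacers of both sgRNAs are shown because they are the only designed difference between the groups. Each is written with its PAM in capitals.
Myog-En5-sgRNA1: gaaggggttactgtcggcagAGG
Myog-En5-sgRNA2: gaccggaagattgaaccactGGG

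In skeletal muscle an action potential travels along the surface membrane and into the T tubules, where the L-type calcium channel acts as a voltage sensor. At the triad, a T tubule lies against the sarcoplasmic reticulum, and the sensor opens the ryanodine receptor by direct contact, which releases stored calcium and starts contraction. Junctophilins hold both membranes together, and triadin links the receptor to the calcium-binding protein of the store. C2C12 cells build this machinery as they fuse into myotubes.

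The libraries held from 31831093 to 73988425 counts, and dCas9-KRAB-En5 replicate 3 listed 13991 genes against 17084 or more in the others. *Myog* had 43211 to 74845 counts in dCas9-KRAB libraries and 0 to 12 in dCas9-KRAB-En5 libraries. All 9 skeletal muscle markers examined were called lower, and their summed TPM (a level per gene length, scaled to the same total in each library) was 15948 to 18191 in dCas9-KRAB cells and 14.9 to 22.6 in dCas9-KRAB-En5 cells. Macrophage markers were expressed in every library although the labels name only C2C12 myoblasts. Of 12 such markers, 10 reached 1 TPM in every dCas9-KRAB library and 10 in every dCas9-KRAB-En5 library, and *Mrc1* was listed at 0 in all. Their summed TPM was 5659 to 8350 in dCas9-KRAB cells and 12421 to 20674.5 in dCas9-KRAB-En5 cells. The largest part of each sum was *Lyz2*, with 1896 to 4815 TPM in dCas9-KRAB and 6938 to 13210 TPM in dCas9-KRAB-En5 libraries. Log2 fold changes were negative for *Fcer1g*, *Spi1* and *Aif1* (-0.16, -0.32 and -1.63). They were positive for the other tested markers, from 0.32 for *Csf1r* to 2.75 for *Itgam*. Of the 11 tested, 1, *Adgre1*, was called higher. Cardiac markers summed to at most 3.02 TPM and neuronal markers to at most 6.95 TPM in any library. Smooth muscle markers summed to 167 to 361 TPM against 4.75 to 10.8 TPM, and fibroblast markers to 57.6 to 138 TPM against 13.9 to 25.7 TPM, with 1 called lower in each list, *Acta2* and *Col1a1*. *Acta2* alone had 160, 339 and 263 TPM in dCas9-KRAB libraries, and nearly all the rest was *Smtn*. *Myh11* and *Cnn1* had at most 0.0211 and 0.0404 TPM in dCas9-KRAB and 0.0310 and 0.155 TPM in dCas9-KRAB-En5 libraries. *Myocd* was listed at 0 in all. These marker genes were named after their values had been seen. The part of these markers in the results below was not tested, and in bulk RNA fewer muscle cells cannot be told apart from less RNA per cell.

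Triad genes were lower in dCas9-KRAB-En5 cells. All 10 had a lower TPM in every dCas9-KRAB-En5 library than in any dCas9-KRAB library, which 19.7% of all tested genes also showed. For *Trdn*, listed at 0 in dCas9-KRAB-En5 cells, 3 counts would stand for 0.0140 to 0.0189 TPM, above its lowest dCas9-KRAB level of 0.00955 TPM, so that a separation could not be shown at this depth. With 3 libraries against 3, the exact permutation test (two-sided) gave p = 0.1 for each member, the smallest p this design allows. In edgeR's quasi-likelihood test, 8 members passed the low-count filter and 6 of them were called lower, with an adjusted p up to 0.01 and a log2 fold change of 1 or more in size. These were *Cacna1s*, *Cacng1*, *Jph2*, *Stac3*, *Cacnb1* and *Jph1*. Over all 14378 genes tested, 4.67% (671) were called lower and 1.52% (219) higher. Scaled by total counts in place of TMM, the numbers were 516 and 70, and 5 members were called lower. The median log2 fold change was -5.69 over the 8 tested members and 0.08 over all tested genes. *Ryr1* and *Cacna2d1* did not pass both cutoffs, and *Ryr3* and *Trdn* were too low to be tested. No member was called higher, none had an unadjusted p below 0.05 with a higher level, and DESeq2 also called 0 higher.

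**Figure D1:**
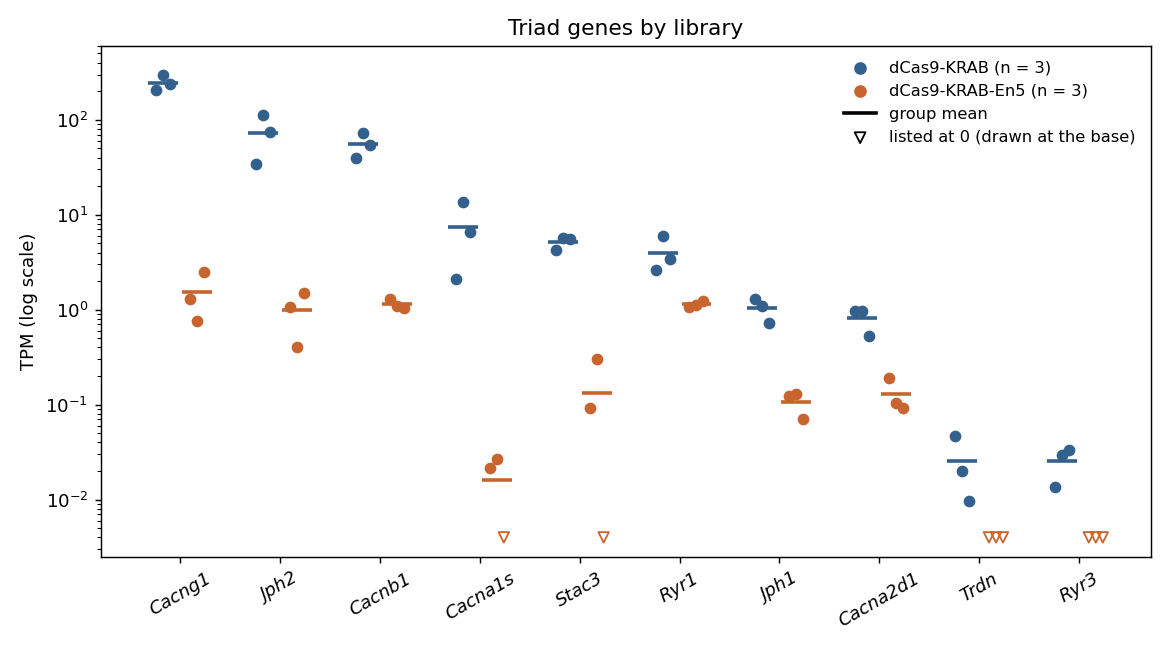
TPM on a log axis of each triad gene in each library, with dCas9-KRAB in blue, dCas9-KRAB-En5 in orange, group means as bars and libraries listed at 0 as open triangles at the base. All orange points are listed below all blue points in each of the 10 genes, which for *Trdn* is within the limit of detection. Among genes above 0 in every library, the gap on this axis is narrowest for *Ryr1*, with 2.63 TPM as the lowest blue and 1.23 TPM as the highest orange point. For *Ryr3*, 3 counts would stand for up to 0.00932 TPM in orange libraries, against 0.0136 TPM as the lowest blue point.

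The voltage sensor is a complex of the pore-forming subunit encoded by *Cacna1s* with the subunits encoded by *Cacnb1*, *Cacng1* and *Cacna2d1*. *Cacna1s* (ENSMUSG00000026407) maps to the plus strand of chromosome 1 in GRCm38, between 136052750 and 136119822. Values are given here and below in the order of replicates 1, 2 and 3. In dCas9-KRAB cells 375, 3347 and 1919 counts were found, and in dCas9-KRAB-En5 cells 3, 3 and 0. Its TPM was 2.11, 13.7 and 6.54 in the former and 0.0216, 0.0270 and 0 in the latter. The dCas9-KRAB libraries thus spread over 6.47-fold, with replicate 1 lowest, and the dCas9-KRAB-En5 libraries were at the limit of detection. The pooled 5641 and 6 counts gave a ratio of 558 after division by the pooled depth, with a 95% interval of 256 to 1520 (exact binomial) that covers counting error only. The fitted log2 fold change was -9.06 (SE 0.94, adjusted p = 0.000113, edgeR quasi-likelihood test with Benjamini-Hochberg adjustment). On the opposite strand, the exons of Gm37759 overlap 1309 bases of its exons, 19.98% of their length. This gene had 19, 0 and 20 counts in dCas9-KRAB and 4, 2 and 0 in dCas9-KRAB-En5 libraries. The kit named in the methods does not mark strand, so reads from this stretch cannot be assigned to either gene.

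*Cacng1* encodes the gamma subunit, which is particular to skeletal muscle, and it had the highest level of the 10 genes in dCas9-KRAB cells. It lies on the minus strand of chromosome 11, between 107703218 and 107716522. Its TPM was 208, 295 and 237 in dCas9-KRAB cells, and 1.28, 0.756 and 2.52 in dCas9-KRAB-En5 cells. This was a log2 fold change of -7.11 (SE 0.84, adjusted p = 0.000281, edgeR). *Cacnb1* encodes the beta subunit, which brings the pore to the membrane, from the minus strand of chromosome 11 between 98001508 and 98023034. Its TPM was 39.3, 73.4 and 53.7 in dCas9-KRAB cells and 1.30, 1.11 and 1.04 in dCas9-KRAB-En5 cells. This amounted to a mean of 55.5 ± 17.1 (SD, n = 3) against 1.15 ± 0.136 TPM (SD, n = 3). Its log2 fold change of -5.63 (SE 0.56, adjusted p = 9.09e-05, edgeR) was past both cutoffs in all 17 alternative analyses, the only member of which this held. *Cacna2d1* encodes the alpha2delta subunit, an extracellular part of the channel, from the plus strand of chromosome 5 between 15934691 and 16374511. It was a low-level gene, with 0.971, 0.975 and 0.534 TPM in dCas9-KRAB cells and 0.190, 0.105 and 0.0915 TPM in dCas9-KRAB-En5 cells. Its log2 fold change of -2.80 (SE 0.61) narrowly missed the cutoff (adjusted p = 0.0105, edgeR). With the replicate number as a block it was -2.84 and was called lower (adjusted p = 0.00503, edgeR). DESeq2 also called *Cacna2d1* lower (log2 fold change -2.85, adjusted p = 3.69e-05). The block called 7 of the 8 tested members lower, against 6.79% of all genes.

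*Stac3* encodes an adaptor that binds the voltage sensor and is needed for its coupling to the release channel. The gene spans 127501686 to 127508823 of chromosome 10, plus strand. It had 294, 545 and 631 counts in dCas9-KRAB cells and 5, 13 and 0 counts in dCas9-KRAB-En5 cells. In TPM these were 4.26, 5.73 and 5.54 against 0.0928, 0.302 and 0, which makes *Stac3* the member with the smallest coefficient of variation among dCas9-KRAB libraries, 15.4%. The fitted log2 fold change was -5.76 (SE 0.89, adjusted p = 0.00159, edgeR).

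*Ryr1* encodes the skeletal muscle calcium release channel, and its transcripts kept a larger part of their level than those of *Cacnb1*, *Cacng1* and *Jph2*. *Ryr1* (ENSMUSG00000030592) maps to the minus strand of chromosome 7 in GRCm38, between 29003344 and 29125179, with 21838 bases of annotated exons. Counts were 1561, 4841 and 3366 in the dCas9-KRAB libraries and 494, 418 and 615 in the dCas9-KRAB-En5 libraries. Its TPM was 2.63, 5.92 and 3.44 in dCas9-KRAB cells and 1.07, 1.13 and 1.23 in dCas9-KRAB-En5 cells. The groups did not overlap, and the mean in dCas9-KRAB-En5 cells was 28.6% of that in dCas9-KRAB cells. Its log2 fold change of -1.75 was not called (SE 0.52, adjusted p = 0.0379, edgeR), nor was it with the replicate block (adjusted p = 0.0140) or with DESeq2 (adjusted p = 0.0138). DESeq2 called 7 of the 9 members it tested, against 8.66% of all genes. Without dCas9-KRAB-En5 replicate 3, the library with the fewest listed genes, the log2 fold change was -2.45 (SE 0.42) and the gene was called lower (adjusted p = 0.00150, edgeR). In that fit 8 of 9 members were called lower, against 14.0% of all genes. Without dCas9-KRAB replicate 1, in contrast, 2 of 9 members were called lower, *Cacna1s* and *Cacnb1*, against 1.43% of all genes.

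The smaller difference of *Ryr1* between the groups was compared with that of other members inside each library, on pairs chosen after the values had been seen. The log2 ratio of *Ryr1* to *Cacnb1* TPM was -3.90, -3.63 and -3.96 in dCas9-KRAB cells and -0.29, 0.03 and 0.24 in dCas9-KRAB-En5 cells. The mean ratio was 3.83 higher in dCas9-KRAB-En5 cells, and this difference exceeded the SD of either group, 0.18 and 0.27. The ratios of *Ryr1* to *Cacng1* and to *Jph2* were also higher, by 5.77 and 4.52. None of the 3 ratios overlapped between the groups (exact permutation test, two-sided, p = 0.1 for each and after adjustment over 3 pairs, the smallest p that 3 against 3 allow). These partners had larger fold changes than *Ryr1*, so higher ratios followed from their choice and the test adds no support. The pair with *Cacna2d1*, the tested member nearest to *Ryr1* in log2 fold change (-2.80), was not compared.

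*Ryr3*, a second release channel found in developing muscle, and *Trdn*, which encodes triadin, were close to the limit of detection. They lie on chromosome 2 (112631355 to 113217096, minus strand) and chromosome 10 (33080554 to 33476709, plus strand). *Ryr3* had 7, 21 and 28 counts in dCas9-KRAB libraries and 0 in each dCas9-KRAB-En5 library. Against a floor of 3 counts per library, its TPM was at least 3.21-fold lower. *Trdn* had 12, 7 and 4 counts in dCas9-KRAB libraries and 0 in each dCas9-KRAB-En5 library. Its mean TPM in dCas9-KRAB cells was 1.60-fold the same floor, but the floor lay above its lowest dCas9-KRAB library, so no difference could be shown. With no low-count filter, neither was called (adjusted p = 0.0383 and 0.157, edgeR). The exons of *Aven* overlap 916 bases of those of *Ryr3* on the opposite strand, and *Aven* had 342, 594 and 610 counts in dCas9-KRAB and 159, 179 and 85 in dCas9-KRAB-En5 libraries.

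*Jph2* and *Jph1* encode junctophilins, which anchor the reticulum to the T tubule. *Jph2* lies on chromosome 2 (163336242 to 163397993) and *Jph1* on chromosome 1 (16964560 to 17097889), both on the minus strand. *Jph2* had 34.3, 112 and 74.0 TPM in dCas9-KRAB cells, and 1.08, 0.402 and 1.51 TPM in dCas9-KRAB-En5 cells. The estimate was a log2 fold change of -5.97 (SE 0.86, adjusted p = 0.000967, edgeR). *Jph1*, the form most typical of mature skeletal muscle, was far lower throughout. It had 1.28, 1.09 and 0.733 TPM in dCas9-KRAB cells and 0.123, 0.130 and 0.0699 TPM in dCas9-KRAB-En5 cells. *Jph1* had a log2 fold change of -3.44 (SE 0.70, adjusted p = 0.00765, edgeR). That call was near the cutoff and was kept in 1 of the 6 fits that left out a library, the one without dCas9-KRAB-En5 replicate 3.

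**Figure D2:**
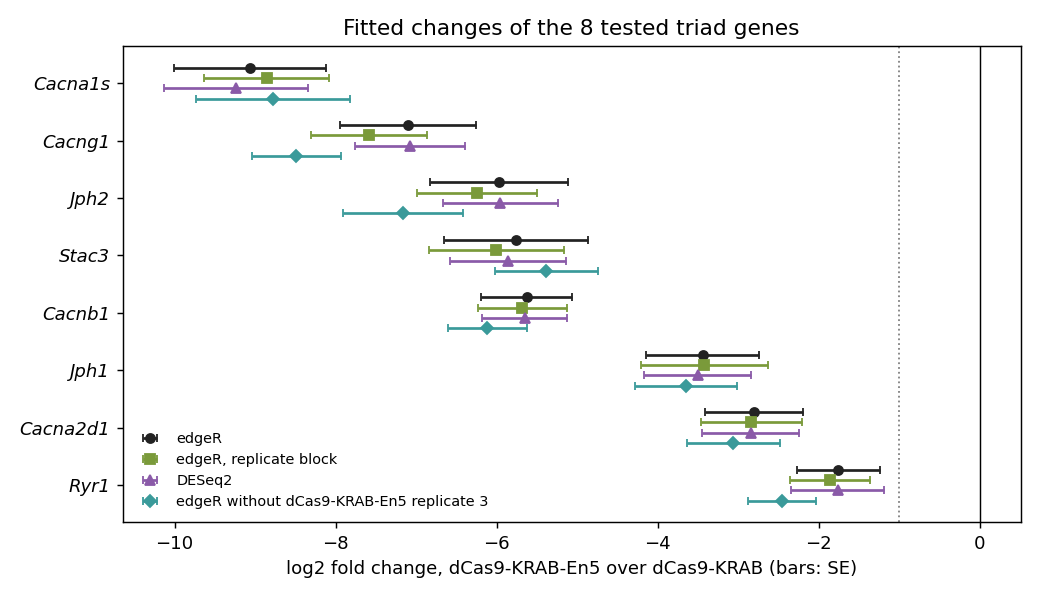
Log2 fold changes (dCas9-KRAB-En5 over dCas9-KRAB, negative is lower) with standard errors of the 8 tested triad genes, from edgeR, edgeR with the replicate block, DESeq2, and edgeR without dCas9-KRAB-En5 replicate 3. The dotted line marks a log2 fold change of -1. All estimates lie left of it, from -9.24 for *Cacna1s* with DESeq2 to -1.75 for *Ryr1* with edgeR.

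In dCas9-KRAB cells, the levels fell in the order *Cacng1*, *Jph2*, *Cacnb1*, *Cacna1s*, *Stac3*, *Ryr1*, *Jph1*, *Cacna2d1*, *Trdn* and *Ryr3*. The mean TPM was 246 ± 44.0 (SD, n = 3) for *Cacng1*, 73.4 ± 38.8 (SD, n = 3) for *Jph2*, 7.43 ± 5.82 (SD, n = 3) for *Cacna1s* and 4.0 ± 1.71 (SD, n = 3) for *Ryr1*. The ranges of neighbours overlapped for *Jph2* and *Cacnb1*, for *Cacna1s* and *Stac3*, for *Stac3* and *Ryr1*, for *Jph1* and *Cacna2d1*, and for *Trdn* and *Ryr3*. In dCas9-KRAB-En5 cells, the highest means were those of *Cacng1*, *Cacnb1*, *Ryr1* and *Jph2*, 1.52, 1.15, 1.14 and 0.996 TPM, and the ranges of neighbours in this order overlapped. Among dCas9-KRAB libraries, replicate 1 had the lowest level of 7 of the 10 genes and replicate 2 the highest of 7. The ratio of replicate 2 to replicate 1 ran from 6.47 for *Cacna1s* and 3.26 for *Jph2* to 0.850 for *Jph1* and 0.423 for *Trdn*. *Actb* also was lowest in replicate 1, with 460 TPM against 1217 and 961 TPM. The fit without this library, given above, also had fewer controls, so its part in the calls cannot be told apart from that loss. Of the members that lost their call there, *Cacng1*, *Jph2* and *Stac3* had log2 fold changes of -7.20, -6.31 and -5.93, and *Jph1* -3.26. Over all genes, 216, 305 and 374 were called lower without dCas9-KRAB replicate 1, 2 and 3, against 671 with all libraries.

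Promoter sequences of 5 of the 10 members were found in RefSeq's table for GRCm38.p6. The sequences of 4 are shown, since these genes differed in the size of their fold change. Each runs 5′ to 3′ on the gene's strand within 250 bases upstream of the RefSeq start and stops before the first annotated exon base of the gene. Capitals mark the E-box, CANNTG, the motif that myogenic basic helix-loop-helix factors such as myogenin bind.
*Cacna1s*, chr1:136052561-136052749, plus strand: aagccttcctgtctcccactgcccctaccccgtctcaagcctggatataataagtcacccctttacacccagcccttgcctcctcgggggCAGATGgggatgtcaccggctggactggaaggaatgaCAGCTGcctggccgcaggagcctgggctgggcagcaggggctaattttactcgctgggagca
*Jph2*, chr2:163397994-163398243, minus strand: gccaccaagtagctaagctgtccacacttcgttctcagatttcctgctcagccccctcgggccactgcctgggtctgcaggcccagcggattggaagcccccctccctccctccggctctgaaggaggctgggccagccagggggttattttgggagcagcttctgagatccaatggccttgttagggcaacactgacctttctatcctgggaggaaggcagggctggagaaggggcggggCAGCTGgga
*Cacnb1*, chr11:98022635-98022877, minus strand: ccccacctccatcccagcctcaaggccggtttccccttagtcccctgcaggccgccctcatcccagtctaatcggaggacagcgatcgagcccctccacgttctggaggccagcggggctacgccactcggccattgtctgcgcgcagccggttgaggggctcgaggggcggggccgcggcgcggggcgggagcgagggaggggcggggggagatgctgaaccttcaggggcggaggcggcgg
*Ryr1*, chr7:29125180-29125401, minus strand: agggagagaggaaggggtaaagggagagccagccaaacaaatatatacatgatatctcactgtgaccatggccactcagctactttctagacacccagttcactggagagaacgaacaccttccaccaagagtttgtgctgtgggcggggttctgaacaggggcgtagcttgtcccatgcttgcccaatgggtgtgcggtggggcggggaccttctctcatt

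The *Cacna1s* stretch held 2 E-boxes, at -160 and -123 from the start, and the second reads CAGCTG. The *Jph2* stretch held 1, also CAGCTG, at -9. The stretches of *Ryr1* and of the first *Cacnb1* start held none, and a second *Cacnb1* start had CACATG at -27. *Cacna2d1* had none in its 250 bases. CANNTG, which covers CAGCTG and reads the same on both strands, was present in the 250 bases upstream of 66.2% of all 32851 promoters in the table, and CAGCTG in 13%. Of the 5 members, 3 held CANNTG and 2 held CAGCTG. A member was counted if any of its starts held the motif (7 starts for the 5 members), whereas the shares over the table are per promoter. The MEF2 motif was found in none of the 5 and in 2.92% of all promoters. These are letter matches in a short window and do not show binding.

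Most members belong to families with other genes, and the share of each member in the summed TPM of its family was compared within each library. *Cacna1s* made up 61.2%, 88.5% and 77.9% of L-type alpha1 transcripts in dCas9-KRAB cells, and 2.99%, 2.28% and 0% in dCas9-KRAB-En5 cells. The latter shares rest on 3, 3 and 0 counts. In dCas9-KRAB-En5 replicate 3, 3 counts would make up 4.04%, still below every dCas9-KRAB share. What remained in dCas9-KRAB-En5 cells was nearly all *Cacna1d* and *Cacna1f*, in a family that summed to only 0.476 to 1.18 TPM. *Cacnb1* made up 77.8%, 64.1% and 65.7% of beta subunit transcripts in dCas9-KRAB cells and 9.20%, 7.96% and 7.61% in dCas9-KRAB-En5 cells. The remainder was nearly all *Cacnb3*, a beta subunit of many cell types, with 11.2, 41.2 and 28.0 TPM in dCas9-KRAB and 12.8, 12.8 and 12.7 TPM in dCas9-KRAB-En5 libraries. *Cacnb3* was not called (log2 fold change -1.05, SE 0.54, adjusted p = 0.20, edgeR).

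*Jph2* was the main junctophilin in every library, with 96.4%, 99.0% and 98.8% of junctophilin transcripts in dCas9-KRAB cells and 87.7%, 68.3% and 95.6% in dCas9-KRAB-En5 cells. The share of *Ryr3* among ryanodine receptor transcripts was 0.497% to 0.948% in dCas9-KRAB cells, so *Ryr1* was almost the only receptor transcript there. It was listed at 0 in dCas9-KRAB-En5 cells, where 3 counts would make up 0.558% to 0.815%, so a lower share was not detectable at this depth. *Stac3* was the minor member of its family, with 10.4%, 5.62% and 7.25% of STAC transcripts in dCas9-KRAB and 0.907%, 2.76% and 0% in dCas9-KRAB-En5 cells. The rest was *Stac2*, a paralogue of *Stac3*, with 36.6, 96.2 and 70.9 TPM in dCas9-KRAB and 10.1, 10.6 and 17.6 TPM in dCas9-KRAB-En5 libraries. *Stac2* had a log2 fold change of -2.24 that was not called (SE 0.62, adjusted p = 0.0306, edgeR) and was called lower with the replicate block (adjusted p = 0.00402, edgeR). DESeq2 also called *Stac2* lower (adjusted p = 0.00447), against 8.66% of all genes. *Cacna2d1* held 82.2% to 89.6% of alpha2delta transcripts in dCas9-KRAB cells and 46.5% to 100% in dCas9-KRAB-En5 cells, where the family summed to at most 0.289 TPM. The groups overlapped in this family (exact permutation test, two-sided, p = 0.4). Without dCas9-KRAB-En5 replicate 2 the difference in means of -14.5 percentage points for *Cacna2d1* was -2.34, and without replicate 3 it was -29.1. That of *Jph2*, -14.2 percentage points, was -6.42 without dCas9-KRAB-En5 replicate 2. The shares of *Cacna1s*, *Cacnb1*, *Jph2* and *Stac3* were lower in all dCas9-KRAB-En5 libraries (exact permutation test, two-sided, p = 0.1 for each, the smallest possible, and 0.12 after Benjamini-Hochberg adjustment over 6 families).

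**Figure D3:**
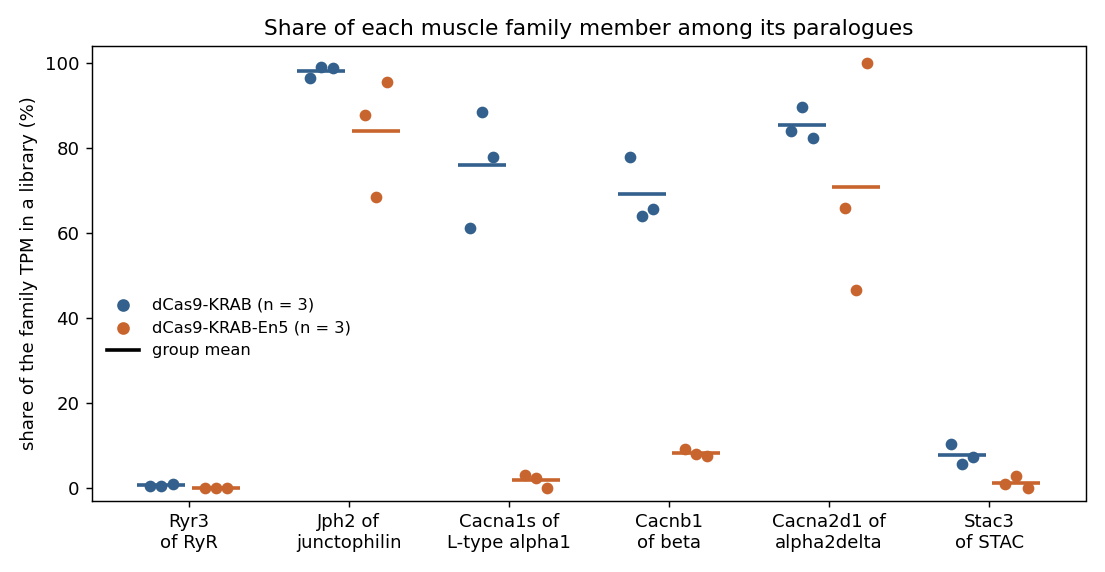
Share, in percent of the summed TPM of the family in a library, of each named member among its paralogues, with dCas9-KRAB in blue, dCas9-KRAB-En5 in orange and group means as bars. The shares of *Cacna1s* and *Cacnb1* had means of 75.9% and 69.2% in dCas9-KRAB and 1.76% and 8.25% in dCas9-KRAB-En5 cells, those of *Jph2* and *Stac3* were also lower without overlap, those of *Cacna2d1* overlapped, and that of *Ryr3* was below detection in dCas9-KRAB-En5 cells. The *Cacna1s* shares in dCas9-KRAB-En5 cells rest on at most 3 counts per library.

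A broader list of 30 paralogues also held the inositol trisphosphate receptors, the other calcium channel alpha1 subunits and the gamma subunits. Of these 30, 12 were tested, 1 was called lower, against 4.67% of all genes, and none higher, against 1.52%, and the median log2 fold change was 0.08. An unadjusted p below 0.05 (edgeR) with a higher level was seen in 4 of the 12 tested paralogues, a cutoff at which all genes were not counted. DESeq2 called 1 higher, against 5.88% of all genes. The gene called lower was *Cacng6*, a gamma subunit with 0.913, 1.54 and 0.497 TPM in dCas9-KRAB and 0 in each dCas9-KRAB-En5 library (adjusted p = 0.00621, edgeR). *Itpr3*, a receptor that releases stored calcium in response to inositol trisphosphate, had 3.19, 17.7 and 8.17 TPM in dCas9-KRAB and 30.6, 57.5 and 8.11 TPM in dCas9-KRAB-En5 libraries. It was not called (log2 fold change 1.38, SE 0.60, adjusted p = 0.134, edgeR). With the replicate block 3 paralogues were called lower, against 6.79% of all genes, among them *Cacna1f* (adjusted p = 0.00763, edgeR). Without dCas9-KRAB-En5 replicate 3, *Cacna1f* and *Stac2* were called lower too (adjusted p = 0.000989 and 0.000561, edgeR), against 14.0% of all genes. In that fit *Itpr1* and *Itpr2* were called higher (log2 fold change 1.98 and 2.59, adjusted p = 0.00523 and 0.000495, edgeR), against 1787 of all 15265 genes. *Itpr2* was also the paralogue that DESeq2 called higher, and both were named after their values had been seen.

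A wider list of 49 genes of coupling, grouped by role, was read in the same fit. Of these, 42 were tested, 16 were called lower, against 4.67% of all genes, and 2 higher, against 1.52%, with a median log2 fold change of -0.67. By role, the number called lower was 7 of 11 tested genes of T tubule formation, 3 of 7 of the calcium store, 4 of 16 partners of the release unit, 2 of 4 of membrane excitation and 0 of 4 of store refilling, and the difference between roles was not tested. For store refilling, 1 gene had an unadjusted p below 0.05 (edgeR) with a lower level, a cutoff at which all genes were not counted. DESeq2 called 0 genes of this role lower.

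Among partners of the release unit, *Jsrp1*, which binds both the voltage sensor and the calcium store protein, had 296 to 442 TPM in dCas9-KRAB and 0.918 to 2.21 TPM in dCas9-KRAB-En5 libraries. This corresponds to a log2 fold change of -8.09 (SE 0.58, adjusted p = 1.82e-05, edgeR). *Srl*, encoding the calcium-binding sarcalumenin, and *Hrc*, another calcium-binding protein of the reticulum, were also lower, by -4.18 and -4.23, and *Hrc* was named after its values had been seen. *Tmem38a* and *Tmem38b* encode related cation channels of the reticulum and moved in opposite directions. *Tmem38a*, the form of excitable tissue, had 148 to 167 TPM in dCas9-KRAB and 3.77 to 4.90 TPM in dCas9-KRAB-En5 libraries (log2 fold change -5.26, SE 0.53, adjusted p = 9.70e-05, edgeR). *Tmem38b*, the form of many tissues, had 34.8, 21.0 and 18.3 TPM in dCas9-KRAB and 378, 306 and 83.6 TPM in dCas9-KRAB-En5 cells. It was called higher (log2 fold change 3.02, SE 0.53, adjusted p = 0.00375, edgeR), and its level in dCas9-KRAB-En5 replicate 3 was the lowest of that group.

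Other partners with a mean of at least 10 TPM in a group did not pass the cutoffs. *Fkbp1a*, encoding the small protein that binds the release channel, had a log2 fold change of -0.29 (SE 0.47), and *S100a1*, a calcium sensor, 0.18 (SE 0.68). The direction for *S100a1* turned with 1 library, with 192, 177 and 485 TPM in dCas9-KRAB-En5 against 267 to 357 TPM in dCas9-KRAB libraries. Without dCas9-KRAB-En5 replicate 3 its log2 fold change was -1.34 (adjusted p = 0.0144, edgeR), and with the replicate block -0.43. The calmodulin genes *Calm2* and *Calm3* had -0.70 and -0.03, and their TPM ranges overlapped between the groups. *Selenon* and *Cherp*, encoding proteins of the reticulum, had 0.43 and 0.58. *Asph*, whose locus also encodes the triad protein junctin, had 2.47, 1.87 and 1.30 TPM in dCas9-KRAB and 23.5, 20.6 and 1.48 TPM in dCas9-KRAB-En5 cells. It was not called (log2 fold change 2.54, SE 0.66, adjusted p = 0.0229, edgeR) but was called higher with the replicate block (adjusted p = 0.00921), against 3.94% of all genes. DESeq2 also called *Asph* higher (adjusted p = 0.00125), against 5.88% of all genes. Counts per gene do not separate junctin from the enzyme made from the same locus.

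In the calcium store, *Casq2*, encoding a calsequestrin, had 106, 72.1 and 69.8 TPM in dCas9-KRAB and 0.0518, 0 and 0 TPM in dCas9-KRAB-En5 libraries. *Atp2a1*, the calcium pump of fast muscle, had 26.3, 109 and 63.0 TPM against 0.0814, 0.136 and 0 TPM. The third gene called lower was *Casq1*, the skeletal calsequestrin, at 1.13 to 1.64 TPM against 0 to 0.0968 TPM, named after its values had been seen. *Atp2a2* and *Atp2a3*, the other calcium pump genes of the list, were not called lower. *Atp2a2* had 14.9, 30.4 and 14.9 TPM in dCas9-KRAB and 147, 203 and 15.7 TPM in dCas9-KRAB-En5 libraries (log2 fold change 2.17, SE 0.62, adjusted p = 0.0332, edgeR). *Atp2a3* had 5.46, 35.5 and 19.1 TPM against 58.3, 93.8 and 22.1 TPM (log2 fold change 1.26, SE 0.59, adjusted p = 0.157, edgeR). Neither was called in this fit, and in both dCas9-KRAB-En5 replicate 3 lay within the range of the controls. DESeq2 called *Atp2a2* higher (log2 fold change 2.07, adjusted p = 0.00427), against 5.88% of all genes, but not *Atp2a3* (adjusted p = 0.140). *Calr*, encoding a calcium-binding chaperone, had a log2 fold change of 0.44 (SE 0.47).

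Of the genes of T tubule formation called lower, *Bves*, encoding a membrane protein of the Popeye family, had 6.87 to 10.5 TPM in dCas9-KRAB and 0.123 to 0.307 TPM in dCas9-KRAB-En5 libraries. *Dnm2* and *Mtmr14*, which act in membrane traffic in many tissues, had log2 fold changes of 0.58 (SE 0.50) and 0.04 (SE 0.44) and were not called, and that of *Mtmr14* was -0.29 without dCas9-KRAB-En5 replicate 3. In store refilling, *Orai1*, the calcium channel of the surface membrane opened when the store is empty, had 38.5, 74.6 and 57.6 TPM in dCas9-KRAB and 18.8, 18.97 and 22.0 TPM in dCas9-KRAB-En5 libraries. Its groups did not overlap, but it was not called (log2 fold change -1.46, SE 0.51, adjusted p = 0.0701, edgeR), whereas without dCas9-KRAB-En5 replicate 3 it was called lower (-2.19, adjusted p = 0.00191, edgeR). In membrane excitation, *Scn4a*, the sodium channel of skeletal muscle, was called lower (log2 fold change -5.55, SE 1.16, adjusted p = 0.00865, edgeR) and was named after its values had been seen. *Kcnj2*, an inward rectifier potassium channel, was called higher, with 1.69, 0.525 and 0.681 TPM in dCas9-KRAB and 36.9, 18.0 and 1.71 TPM in dCas9-KRAB-En5 libraries (log2 fold change 3.81, SE 0.82, adjusted p = 0.00956, edgeR). The highest control and the lowest dCas9-KRAB-En5 library differed by little. Neither *Tmem38b* nor *Kcnj2* was called in the fits that left out a dCas9-KRAB library, and without dCas9-KRAB-En5 replicate 3 *Asph* and *Atp2a2* were called higher as well.

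**Figure D4:**
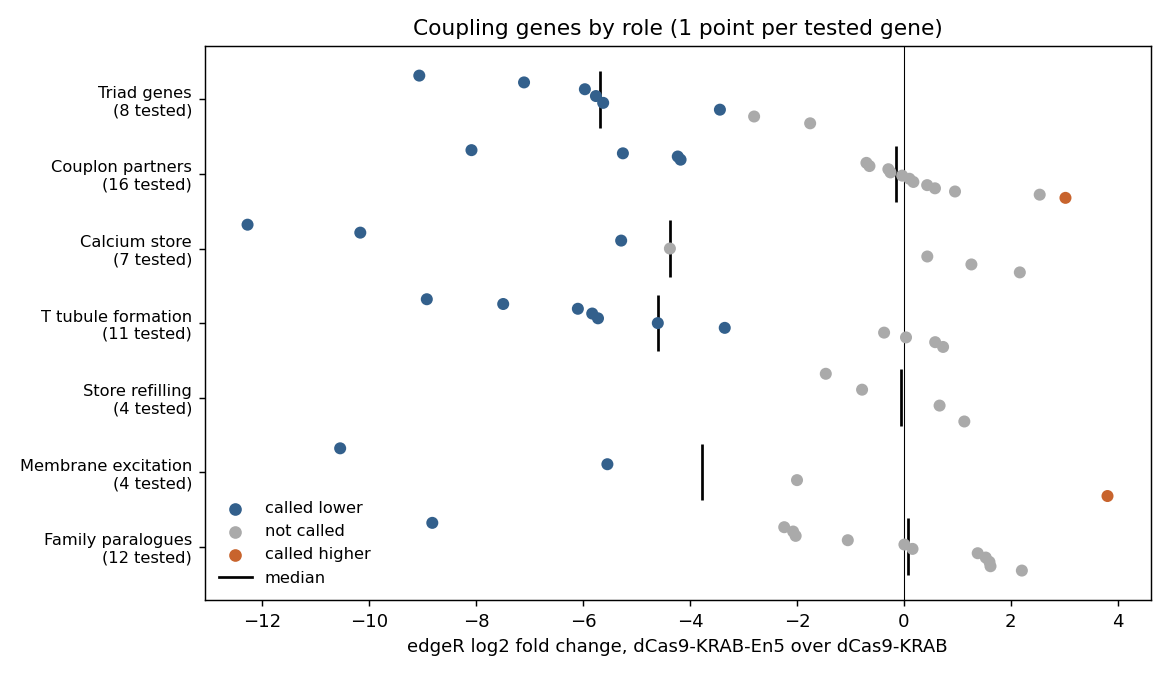
EdgeR log2 fold change (dCas9-KRAB-En5 over dCas9-KRAB) of every tested triad gene, of the wider coupling genes by role and of the family paralogues, with blue for called lower, grey for not called, orange for called higher and a black line for the median. The triad median lies at -5.69, those of T tubule formation and the calcium store at -4.60 and -4.38, and those of release unit partners and paralogues at -0.14 and 0.08.

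The tested genes whose level was most like that of 3 members were sought by the mean absolute difference in log2(TPM + 1) over the 6 libraries, which is a description of level and not of control. For *Cacna1s* they were *Vgll2*, *Il12a* and *Obsl1*, with differences of 0.112, 0.135 and 0.154. For *Ryr1* they were *Cradd*, *Oplah* and *Usp11*, with 0.120, 0.151 and 0.192. For *Cacna2d1* they were *Steap2*, 1700052K11Rik and *Stard13*, with 0.0529, 0.0607 and 0.0624.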

How the data were processed

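RNA-Seq of 6 libraries was used, 3 a group, with groups and replicate numbers from the sample titles. Nothing in the labels says that the cultures were independent, so p-values measure the spread between these libraries. Poly(A) libraries were sequenced as read pairs. Alignment by the authors was to GRCm38 with HISAT2 2.2.1, and the deposited counts are raw featureCounts values. The deposited TPM correct these for gene length and library total. The annotation release and strand setting are not given in the sources used here. The implied lengths matched GENCODE exon lengths within 1% for 98.62% of 12933 genes. Unlisted genes were taken as 0.

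Counts were compared with edgeR 4.0.16 in R 4.3.3 (TMM, filterByExpr with minimum count 10 and minimum total 15, quasi-likelihood test, Benjamini-Hochberg adjustment over 14378 genes), with condition alone in the model. The SE is the fold change divided by the root of F. The fit was checked on simulated counts, where it recovered large changes but few with a log2 fold change of 2. A gene that was not called may thus still have changed by that much. Exact permutation tests ran in SciPy 1.17.1. Intervals and floors of 3 counts cover counting error only. Replicate libraries differed by at least 119 chi-square units per degree of freedom. Replicates with the same number shifted together in both groups (correlation of deviations from the group mean 0.26, 0.21 and 0.29 for replicates 1, 2 and 3, and below 0 for all other pairs). Such deviations sum to 0 within a group, so the negative values of the other pairs are no separate support. Because of the shared shift, the fit with the replicate number as a block is given where it changed a call. The alternatives were DESeq2 1.42.0, limma-trend (limma 3.58.1) with pseudocounts of 1 and 0.1 TPM, other normalizations, filters and cutoffs, and leaving out each library.

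The members and gene lists were chosen with earlier results of these data known. The text names all members, *Myog*, *Actb*, genes of the wider and paralogue lists called higher, up to 8 called lower by adjusted p, those not called with a mean of at least 10 TPM in a group, and the 3 genes nearest in level to each of 3 members. Of the genes this rule names, 3 are not reported here. Marker lists covered skeletal muscle, cardiac, neuronal, smooth muscle, fibroblast and macrophage genes. Stretches of 50 bases shared with transcripts of other genes, on either strand, made up 16.3% of *Cacna1s*, 4.27% of *Ryr3*, 2.68% of *Ryr1* and under 1% of the other members.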

Additional observations from a re-analysis of the deposited data

How the results depend on the processing

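All 8 tested members were lower in each of the alternative analyses that tested them. Of 133 values from these analyses, 111 kept their side of the cutoffs, 13 lost a call and 9 gained one. The count of members called lower, 6, was 4 to 8 under other settings and 2 to 8 when a library was left out, with the lowest value without dCas9-KRAB replicate 1 and the highest without dCas9-KRAB-En5 replicate 3. The replicate block changed the call of *Cacna2d1*, *Stac2*, *Cacna1f* and *Asph* and no other call among the members and lists.

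For the wider list, 16 called lower became 6 with at least 10 counts in every library, and 11 to 18 with a library left out. The 2 called higher became 4 with DESeq2, with no low-count filter and at an adjusted p of 0.05, 1 with upper-quartile normalization, total counts only and both limma fits, 0 with glmTreat and 0 to 4 with a library left out. For paralogues, 1 called lower became 3 with DESeq2, no low-count filter and the replicate block, 2 at an adjusted p of 0.05, 0 with total counts only, at least 10 counts in every library and limma on log2(TPM + 1), and 0 to 3 with a library left out. The 0 called higher became 1 with DESeq2, no low-count filter and an adjusted p of 0.05, and 0 to 2 with a library left out.

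Over all genes, 671 called lower became 1423 with DESeq2, 1194 with no low-count filter, 339 with at least 10 counts in every library, 439 with glmTreat, 1380 at an adjusted p of 0.05, and 216 to 2134 with a library left out. The 219 called higher became 967 with DESeq2, 70 with total counts only, 1004 with no low-count filter, 67 with glmTreat, 1069 at an adjusted p of 0.05, 32 and 66 with limma on log2(TPM + 1) and log2(TPM + 0.1), 567 with the replicate block, and 6 to 1787 with a library left out. The median log2 fold change of all genes moved between -0.05 and 0.18. Fewer tested genes or fewer samples are part of some of these settings, and otherwise the cause was not tested. The differences in family shares moved by less than the SD pooled over both groups with counts in place of TPM, with only tested paralogues and with each library left out. That SD was wide in dCas9-KRAB-En5 cells for *Jph2* and *Cacna2d1* (14.0 and 27.1 percentage points, against 1.44 and 3.87 in dCas9-KRAB cells), whose differences ran from -20.0 to -6.42 and from -29.1 to -2.34 with a library left out, and that of *Cacna2d1* was -4.64 with only tested paralogues. *Ryr3*, which was not tested, has no value with only tested paralogues. At 3 counts per library, levels below 0.0405 to 0.0942 CPM (counts scaled by depth) were not measurable. This limits *Ryr3*, *Trdn* and *Cacna1s* in dCas9-KRAB-En5 cells and *Stac3* in dCas9-KRAB-En5 replicate 3.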
